A study of Mus musculus and Homo sapiens with 12 samples.

Results

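The 10 genes described here encode the D cyclins, the kinases they activate, 4 inhibitors of cyclin-dependent kinases and the retinoblastoma protein. They were taken by gene symbol (CCND1, CCND2, CCND3, CDK4, CDK6, CDKN1B, CDKN1C, CDKN2C, CDKN2D and RB1) from tables of 55487 mouse and 78932 human genes, and all 10 were found and passed the filter on low counts in both species. Their transcripts were counted by RNA sequencing of poly(A) RNA in 12 libraries, 3 in each of 4 groups. In the mouse, lineage-negative Kit+ (LK) progenitors were sorted from fetal liver at embryonic stage E13.5, and both genotypes carried loxP-flanked Ddx21 alleles (Ddx21f/f). The WT group had these alleles alone, and the cKO group also had Cre recombinase driven by Vav1, a gene active in blood cells, so deletion was restricted by that promoter. In the human experiment, cells of the embryonic stem cell line H1 were differentiated to CD34+ CD45+ CD43+ cells and transduced with mCherry lentivirus, whose hairpin was a control in shNC and targeted DDX21 in shDDX21. Cells with the vector were sorted 2 days later, and the labels name 1 hairpin for each arm. The labels do not say whether a mouse library pools embryos or which human libraries were cultured apart. P-values therefore measure the spread between these libraries, which may be technical. Gene positions are given in GRCm38 (mm10) and GRCh38 (hg38), as the count tables list them.

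DDX21 is an RNA helicase of the nucleolus that takes part in the production of ribosomes. D cyclins respond to growth factor signals, bind CDK4 or CDK6 and start the phosphorylation of the RB1 protein, which otherwise holds back the E2F transcription factors that switch on genes of DNA synthesis. The INK4 inhibitors, here p18 (CDKN2C) and p19 (CDKN2D), bind CDK4 and CDK6 directly, whereas the CIP/KIP inhibitors, here p27 (CDKN1B) and p57 (CDKN1C), bind cyclin-kinase complexes. In blood, CDK6 and the D cyclins act in stem and progenitor cells, and p57 and p27 are known for holding stem cells in quiescence.

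Libraries held between 15289510 and 23898130 counts. DDX21 itself fell to 19.7% of the WT level in cKO (log2 fold change -2.35, adjusted p 5.91e-08) and to 14.5% of the shNC level in shDDX21 (-2.78, adjusted p 1.33e-70). Transcripts of Kit, used in the mouse sort, and of Cd34, Ptprc (CD45) and Spn (CD43), used in the human sort, were present, at 70.9 to 362 CPM (counts scaled to a common library size) in WT and at 94.9 to 691 CPM in shNC. Of the lineage markers, mouse Ly6g and Cd3e had at most 3 counts in any library. All p-values below are from edgeR's quasi-likelihood test, adjusted by the Benjamini-Hochberg method over all genes tested, unless another test is named. The mouse libraries varied more between replicates than the human ones, with a biological coefficient of variation of 10.5% against 2.23%. In bulk RNA, a change in the number of cells of one type and a change in the RNA of each cell cannot be told apart.

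In the mouse, 7 of the 10 genes passed the test, where 36.5% of all 14918 genes tested did. Of these 4 rose in cKO, against 20.7% of all genes, and 3 fell, against 15.8%. The libraries of the 2 groups did not overlap for 9 members, 6 higher and 3 lower in cKO, where 49.0% of all genes did not overlap, 27.6% higher and 21.4% lower. Among the human members 7 of 10 passed as well, against 52.7% of 20188 genes. There 4 rose, against 25.3% of all genes, and 3 fell, against 27.4%. The same 7 were those whose groups did not overlap, where 57.4% of all genes did not, 27.9% higher and 29.5% lower. The increases of Ccnd1, Ccnd2 and Rb1 in the mouse were 1.00 to 1.65 on the log2 scale, and the highest increase among the human members was that of CCND3, at 0.45. CDKN2C fell in both experiments, and CDKN1B, CDK6 and RB1 passed in both with opposite directions, although the call of mouse Cdk6 held in 5 of 13 alternatives.

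**Figure D1:**
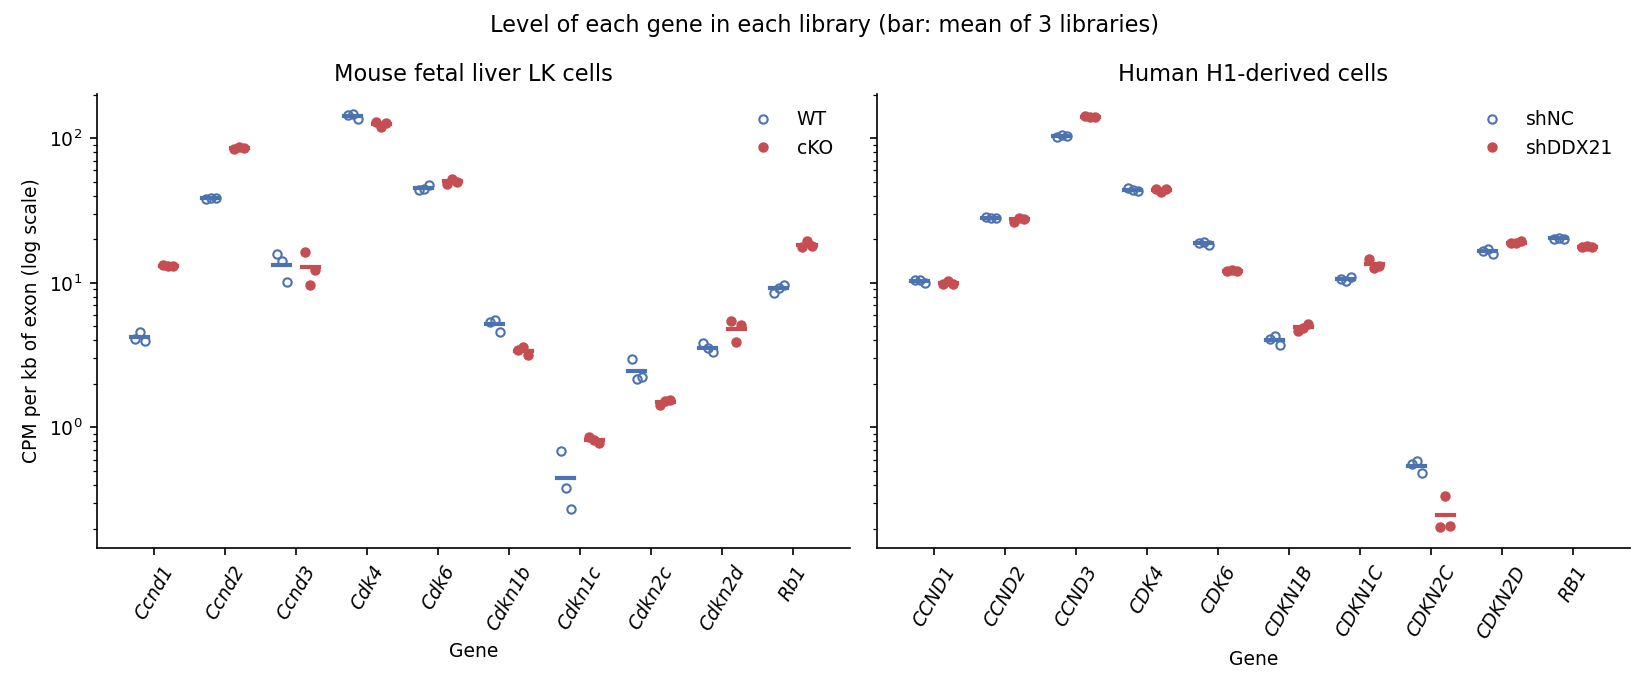
Level of each of the 10 genes in every library, in CPM per kb of exon on a log axis, with WT or shNC as open blue circles and cKO or shDDX21 as filled red circles; short bars are means of 3 libraries. Mouse Ccnd1, Ccnd2 and Rb1 lie clearly above their WT points in cKO, mouse Ccnd3 overlaps between the groups, and human CCND3 and CDK6 separate in opposite directions.

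Among the D cyclins, Ccnd1 (ENSMUSG00000070348, chr7:144929931-144939925, minus strand) is the form best known outside the blood. WT libraries had 428, 441 and 400 counts of it, against 1438, 1509 and 1364 for cKO. These are 19.2, 21.5 and 18.6 CPM against 62.6, 61.2 and 61.9 CPM. The groups lay far apart and the cKO libraries were nearly equal. The mean rose from 19.7 ± 1.53 to 61.9 ± 0.735 CPM (SD, n = 3 each), a 3.13-fold increase (log2 fold change 1.65, SE 0.069, adjusted p 5.31e-06). Human CCND1 (ENSG00000110092, chr11:69641156-69654474, plus strand) reached 941, 757 and 844 counts with shNC, against 914, 821 and 818 with shDDX21, or 49.8, 49.4 and 47.5 against 46.9, 48.7 and 46.6 CPM. The human groups overlapped, and the log2 fold change of -0.05 had a 95% interval of -0.14 to 0.05 (adjusted p 0.452).

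Ccnd2 (ENSMUSG00000000184, chr6:127125162-127152193, minus strand), a D cyclin that cytokines induce in blood cells, was at 356, 365 and 364 CPM in WT and at 790.1, 819 and 803 CPM in cKO, with at least 7498 counts behind each value. Every cKO library was above every WT library. The mean rose from 361.7 ± 4.66 to 804.0 ± 14.5 CPM (SD, n = 3 each), or 2.22-fold (log2 fold change 1.15, SE 0.033, adjusted p 9.91e-07). Human CCND2 (ENSG00000118971, chr12:4269771-4305353, plus strand) was at 227, 224 and 224 CPM in shNC and at 212, 225 and 222 CPM in shDDX21. These overlapped, with a log2 fold change of -0.04 and a 95% interval of -0.09 to 0.02 (adjusted p 0.274). With total-count scaling the value was -0.07 and passed the threshold (adjusted p 0.0346).

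Ccnd3 (ENSMUSG00000034165, chr17:47505051-47599691, plus strand), the D cyclin that red cell and lymphocyte precursors rely on, had the widest spread of the mouse D cyclins. It was at 138, 124 and 88.9 CPM in WT and at 144, 84.1 and 108 CPM in cKO. The groups overlapped, and the lowest and the highest library were both cKO. Its spread within groups (SD 0.36 on the log2 scale) was larger than that of 94.9% of the 8558 mouse genes with at least 10 CPM. The log2 fold change was -0.06 with a 95% interval of -0.58 to 0.46 (adjusted p 0.854). That interval leaves changes of moderate size in either direction undetected. Human CCND3 (ENSG00000112576, chr6:41934934-42050357, minus strand) was at 588, 601 and 595 CPM in shNC and at 817, 811 and 809 CPM in shDDX21. It was the human D cyclin that rose, from 594.7 ± 6.70 to 812.5 ± 3.83 CPM (SD, n = 3 each), 1.37-fold (log2 fold change 0.45, SE 0.020, adjusted p 5.63e-31).

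The order of mouse libraries in Ccnd3 was shared by summed markers of several cell types, and the libraries concerned also deviated together over all genes tested. WT replicate 3 and cKO replicate 2 were lowest in their groups for Ccnd3. The summed erythroid list (9 of 14 genes matched) was 782, 739 and 587 CPM in WT and 867, 576 and 724 CPM in cKO, and was lowest in the same libraries. The summed granulocyte and monocyte list (9 of 10 matched) was 1006, 960 and 745 CPM in WT and 637, 385 and 505 CPM in cKO, again lowest in those. The summed megakaryocyte, mast cell and endothelial lists were lowest in these libraries as well. Over all genes tested, the deviations of WT replicate 3 from its group mean had a correlation of 0.41 with those of cKO replicate 2. With those of cKO replicate 1 the correlation was -0.42. Deviations were taken from the mean of each group, so these correlations are not independent of each other. Whether genes outside the marker lists carried them was not tested. What part cell types or other differences between libraries had in the spread of Ccnd3 was not tested. Ccnd2 did not show this order, with a within-group SD of 0.02 on the log2 scale, larger than that of 2.68% of these genes.

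**Figure D2:**
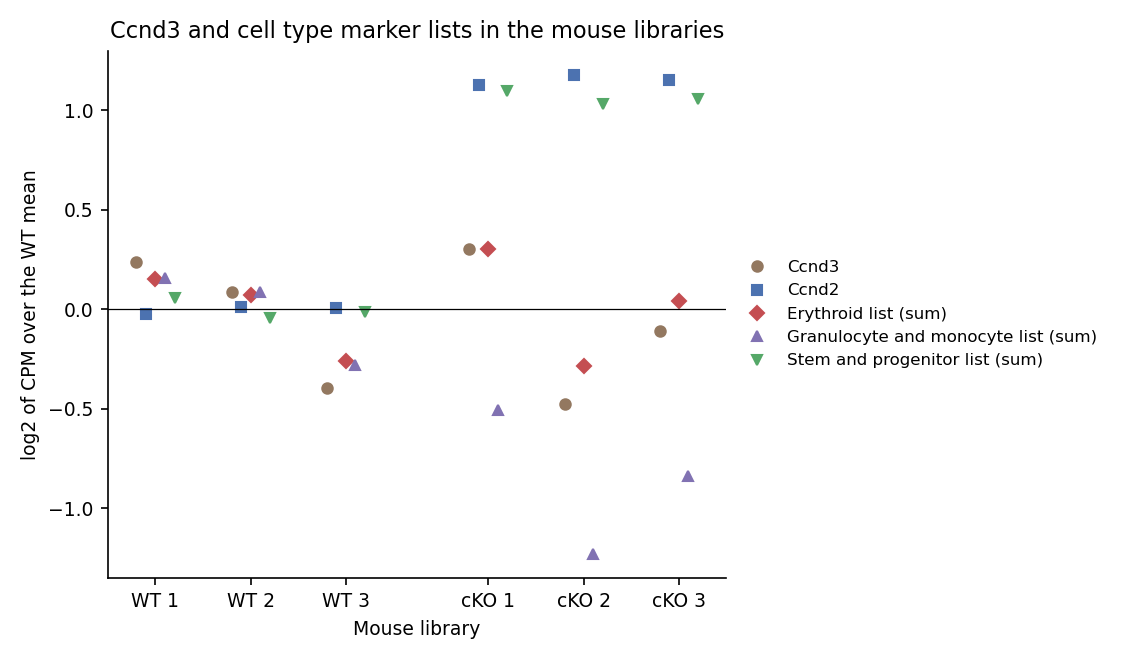
Mouse Ccnd3, Ccnd2 and the summed levels of 3 cell type marker lists in each library, as log2 of the CPM over the WT mean, with points of a library set side by side; replicates have no order. Ccnd3 and the erythroid and granulocyte lists are lowest in WT replicate 3 and cKO replicate 2, whereas Ccnd2 and the stem list are level within groups and above 1 in cKO.

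Levels of different genes can be compared only per length, so counts were also divided by the exon length of each gene as the count tables give it. The listed length may differ from that of the transcript expressed. It was 4552 bases for mouse Cdkn1b and 9255 for human CDKN1B, so shares and orders per length depend on it. Summed over the 3 D cyclins, the level was 57.7, 57.5 and 52.7 CPM per kb in WT and 113.7, 109.6 and 111 CPM per kb in cKO. The mean ratio was 1.99, and the groups did not overlap. The human sum went from 141.6 ± 0.988 to 178.5 ± 0.677 CPM per kb (SD, n = 3 each), a ratio of 1.26. For each of these sums a two-sided exact permutation test gave p = 0.1, the smallest that 3 libraries against 3 allow. The most abundant form was Ccnd2 in the mouse and CCND3 in the human cells. In WT mouse cells Ccnd2 made up 68.8% ± 4.00 of D cyclin transcript (SD, n = 3), Ccnd3 23.7% ± 4.11 and Ccnd1 7.49% ± 0.431. In cKO the shares were 76.8% ± 2.79, 11.4% ± 2.87 and 11.8% ± 0.0908. In shNC cells CCND3 held 72.9% ± 0.386, CCND2 19.9% ± 0.272 and CCND1 7.25% ± 0.180, and in shDDX21 these were 79.0% ± 0.513, 15.4% ± 0.452 and 5.58% ± 0.111. None of the 6 shares overlapped between its groups (exact permutation p = 0.1 each). Thus the Ccnd3 share was lower in cKO by 12.2 percentage points although its own level did not pass the test, and the CCND1 and CCND2 shares were lower in shDDX21 although neither level did.

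**Figure D3:**
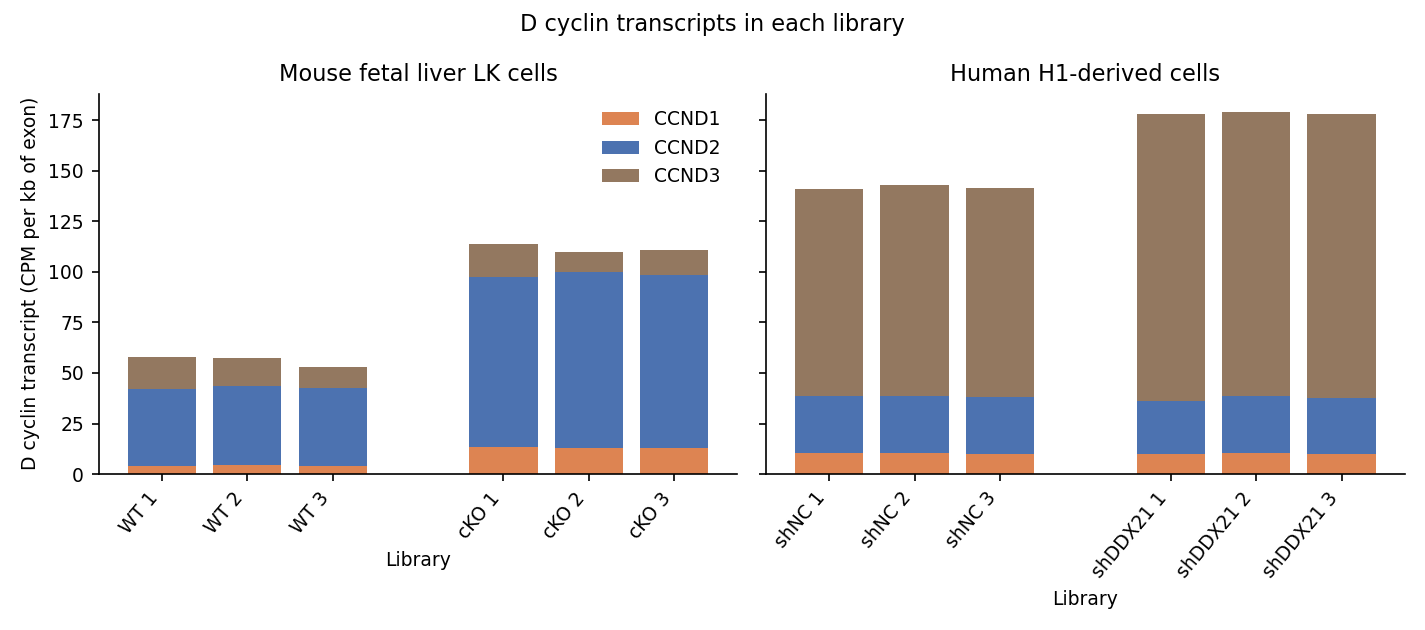
D cyclin transcript in each library as stacked bars, in CPM per kb of exon from 0, with CCND1, CCND2 and CCND3 as separate colours. The mouse sum goes from about 56.0 in WT to 111 CPM per kb in cKO, mostly Ccnd2, and the human sum from 142 to 178 CPM per kb, mostly CCND3.

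The mouse kinases changed by less than Ccnd1 and Ccnd2. Cdk4 (ENSMUSG00000006728, chr10:127063534-127067920, plus strand) was at 473, 476 and 444 CPM in WT and at 422, 388 and 414 CPM in cKO, with no overlap. Its log2 fold change was -0.19 (SE 0.046, adjusted p 0.0175), or 87.8% of WT. Cdk6 (ENSMUSG00000040274, chr5:3341485-3531008, plus strand), the kinase tied to blood progenitors, was at 616, 623 and 661 CPM in WT and at 678, 729 and 701 CPM in cKO. It rose by 0.15 on the log2 scale (SE 0.044, adjusted p 0.0318). Both calls depended on the settings. Cdk4 was called in 9 of 13 alternatives, with total counts (adjusted p 0.0700), without WT replicate 1 or 2 and without cKO replicate 3 as the exceptions, and its adjusted p ranged from 0.00617 to 0.0709. Cdk6 was called in 5 of 13, with adjusted p from 0.0218 to 0.230. It was not called with DESeq2 (0.230), with RLE or upper-quartile factors (0.0885 and 0.0725), with the replicate number as a block (0.0502), without WT replicate 1 or 2 (0.121 and 0.122), or without cKO replicate 2 or 3 (0.0767 and 0.0992).

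Human CDK6 (ENSG00000105810, chr7:92604921-92836573, minus strand) was at 231, 235 and 224 CPM in shNC and at 147, 149.7 and 147 CPM in shDDX21. It fell to 64.4% of the control (log2 fold change -0.64, SE 0.028, adjusted p 1.95e-31), the smallest adjusted p among the 10 human members. CDK4 (ENSG00000135446, chr12:57747727-57756013, minus strand) was at 139, 136 and 133 CPM in shNC and at 137, 130.5 and 137 CPM in shDDX21. These overlapped (log2 fold change -0.01, 95% interval -0.08 to 0.05, adjusted p 0.778). Per length, CDK6 made up 29.9% ± 0.372 of CDK4 plus CDK6 transcript in shNC and 21.7% ± 0.664 in shDDX21 (SD, n = 3 each). In the mouse its share went the other way, from 24.1% ± 1.39 in WT to 28.6% ± 1.62 in cKO. Neither pair of groups overlapped (exact permutation p = 0.1 each). Summed, CDK4 plus CDK6 went from 188.2 ± 3.79 to 175.8 ± 3.65 CPM per kb in the mouse and from 62.8 ± 1.28 to 55.7 ± 1.11 CPM per kb in the human cells (SD, n = 3 each), without overlap (exact permutation p = 0.1 each). Without division by length the mouse log2 ratio turned from -0.098 to 0.017.

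Promoter windows from RefSeq (GRCm38.p6), the 250 bases before the RefSeq start of transcription, were found for 6 of the 10 mouse genes. Ccnd1, Ccnd2, Cdkn1c and Rb1 were not matched. The windows were searched on both strands for 5 elements, and capitals mark the matches. An E box, CACGTG, is bound by MYC and related factors. The GC box searched was GGGCGG, and the CCAAT box was searched by the letters of its name. E2F sites were searched as TTTCCCGC or with the letters TTTGGCGC. The cell cycle homology region searched was TTTGAA. The windows of Cdk4 and Cdk6 are shown because these kinases moved in opposite directions in cKO.
Cdk4, chr10:127063285-127063534, plus strand: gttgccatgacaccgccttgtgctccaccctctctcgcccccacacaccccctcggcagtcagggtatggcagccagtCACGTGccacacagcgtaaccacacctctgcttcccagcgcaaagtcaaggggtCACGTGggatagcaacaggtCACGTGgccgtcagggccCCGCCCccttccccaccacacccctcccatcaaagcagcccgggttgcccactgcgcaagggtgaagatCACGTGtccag
Cdk6, chr5:3343643-3343892, plus strand: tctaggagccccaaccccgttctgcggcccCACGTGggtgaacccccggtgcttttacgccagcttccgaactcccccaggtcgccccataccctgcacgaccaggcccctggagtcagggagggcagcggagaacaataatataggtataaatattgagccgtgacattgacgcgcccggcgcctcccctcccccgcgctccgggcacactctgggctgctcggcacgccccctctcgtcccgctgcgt
The Cdk4 window held 4 E boxes, starting 172, 118, 98 and 11 bases before the start of transcription, and 1 GC box. That of Cdk6 held 1 E box. Of 32851 mouse windows of this length 6.02% held an E box, and 7 windows held 4 or more. A match describes the letters only.

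Of the CIP/KIP inhibitors, Cdkn1b (ENSMUSG00000003031, chr6:134920401-134925513, plus strand) was counted 541, 516 and 451 times in WT, against 361, 403 and 316 in cKO, or 24.3, 25.1 and 20.9 against 15.7, 16.3 and 14.3 CPM. All cKO libraries were below all WT libraries, and the gene fell to 66.0% of WT (log2 fold change -0.60, SE 0.096, adjusted p 0.00270). Human CDKN1B (ENSG00000111276, chr12:12685498-12722369, plus strand) went the other way. It was at 37.8, 39.4 and 34.4 CPM in shNC and at 43.1, 45.4 and 47.9 CPM in shDDX21, and rose by 0.29 on the log2 scale (SE 0.055, adjusted p 5.14e-06).

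Cdkn1c (ENSMUSG00000037664, chr7:143458339-143461050, minus strand), an imprinted gene expressed from the maternal allele, was scarce in the mouse cells. WT libraries held 31, 16 and 12 counts, against 40, 41 and 35 for cKO. The cKO libraries were above the WT ones, but the log2 fold change of 0.86 (95% interval 0.15 to 1.57) did not pass the threshold (adjusted p 0.0625). WT replicate 1 held more counts than the other WT libraries together. Without it the value was 1.31 and passed (adjusted p 0.0102), as it did with total counts (0.0403) and upper-quartile factors (0.0428), within a range of 0.0102 to 0.175 over 13 alternatives. Human CDKN1C (ENSG00000129757, chr11:2883213-2885775, minus strand) was at 26.4, 25.5 and 27.1 CPM in shNC and at 35.9, 31.2 and 32.5 CPM in shDDX21. The groups did not overlap, and it rose by 0.34 on the log2 scale (SE 0.064, adjusted p 5.31e-06).

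Of the INK4 inhibitors, Cdkn2c (ENSMUSG00000028551, chr4:109660876-109667189, minus strand) gave 178, 119 and 129 counts for WT, against 88, 101 and 92 for cKO. It fell to 61.2% of WT (log2 fold change -0.71, SE 0.15, adjusted p 0.00941), with every cKO library lower than every WT library. Human CDKN2C (ENSG00000123080, chr1:50960745-50974634, plus strand) was scarce, at 32, 27 and 26 counts for shNC against 12, 17 and 11 for shDDX21. It fell to 45.7% of the control (log2 fold change -1.13, SE 0.32, 95% interval -1.76 to -0.50, adjusted p 0.00180). The call held in all 13 alternatives of each experiment.

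The windows of Cdkn1b and Cdkn2c, the inhibitors that fell in cKO, are shown for comparison, with capitals as above.
Cdkn1b, chr6:134920151-134920400, plus strand: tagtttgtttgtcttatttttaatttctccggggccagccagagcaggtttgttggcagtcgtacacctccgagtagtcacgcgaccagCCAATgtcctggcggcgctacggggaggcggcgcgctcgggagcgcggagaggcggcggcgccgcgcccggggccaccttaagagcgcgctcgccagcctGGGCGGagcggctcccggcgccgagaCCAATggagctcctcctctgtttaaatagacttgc
Cdkn2c, chr4:109666757-109667006, minus strand: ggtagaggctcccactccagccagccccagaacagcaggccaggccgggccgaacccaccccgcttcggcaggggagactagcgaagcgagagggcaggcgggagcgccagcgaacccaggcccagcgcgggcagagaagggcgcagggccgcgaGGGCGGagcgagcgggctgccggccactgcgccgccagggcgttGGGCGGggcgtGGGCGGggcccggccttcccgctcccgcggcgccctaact
The Cdkn1b window held 2 CCAAT boxes and 1 GC box, and the Cdkn2c window 3 GC boxes. A second RefSeq window of Cdkn2c (chr4:109665373-109665622) held no match to any of the elements. Cdkn2d, which did not fall, also had 3 GC boxes and 1 CCAAT box in its window. Both elements are common, a CCAAT box being in 33.8% and a GC box in 32.7% of all windows. None of the windows shown held an E2F sequence (0.895% and 0.417% of all windows) or TTTGAA (16.0%).

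Cdkn2d (ENSMUSG00000096472, chr9:21288410-21291407, minus strand) gave 134, 115 and 112 counts for WT, against 197, 152 and 176 for cKO. The groups did not overlap, and the log2 fold change of 0.43 (95% interval 0.09 to 0.77) had an adjusted p of 0.0538. This p ranged from 0.00934 to 0.157 over 13 alternatives, 4 of which called the gene, with the lowest value without cKO replicate 2. Human CDKN2D (ENSG00000129355, chr19:10566460-10569059, minus strand) was at 25.1, 25.9 and 23.6 CPM in shNC and at 28.2, 28.3 and 29.2 CPM in shDDX21. It rose by 0.20 on the log2 scale (SE 0.065, adjusted p 0.00756), a call lost without shNC replicate 3 (adjusted p 0.0661, range 0.000306 to 0.0661 over 13 alternatives).

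Per length, the 4 inhibitors summed to 11.6 ± 1.20 CPM per kb in WT and 10.5 ± 0.673 in cKO (SD, n = 3 each), which overlapped (exact permutation p = 0.3). The log2 ratio of -0.14 was -0.06 without WT replicate 1, -0.21 without WT replicate 3 and -0.35 without division by length. Their makeup differed: Cdkn1b went from 44.5% ± 2.95 to 32.4% ± 3.56 of the transcript of these 4, Cdkn2d from 30.7% ± 0.965 to 45.5% ± 4.99. Cdkn1c went from 3.75% ± 1.41 to 7.77% ± 0.465 and Cdkn2c from 21.1% ± 2.34 to 14.3% ± 1.41, and none of these 4 shares overlapped between the groups (exact permutation p = 0.1 each). The levels of Cdkn2d and Cdkn1c themselves did not pass edgeR's test (adjusted p 0.0538 and 0.0625). The human sum went from 31.7 ± 0.792 to 37.5 ± 0.805 CPM per kb (p = 0.1, exact permutation). CDKN2D held 52.1% ± 1.16 of it in shNC and 50.6% ± 1.18 in shDDX21, which overlapped. CDKN1C held 33.5% ± 1.84 and 35.7% ± 2.05, and CDKN1B 12.7% ± 0.561 and 13.1% ± 0.771, which overlapped as well (exact permutation p = 0.3 and 0.5). CDKN2C held 1.71% ± 0.122 and 0.665% ± 0.214, which did not overlap (exact permutation p = 0.1).

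The transcript of RB1, whose protein the kinases act on, rose in the mouse and fell in the human cells. Rb1 (ENSMUSG00000022105, chr14:73183673-73325822, minus strand) was at 51.5, 55.3 and 58.5 CPM in WT and at 106, 118 and 108 CPM in cKO. It doubled, from 55.1 ± 3.50 to 110.5 ± 6.31 CPM (SD, n = 3 each; 2.01-fold, log2 fold change 1.00, SE 0.065, adjusted p 3.64e-05). Human RB1 (ENSG00000139687, chr13:48303744-48599436, plus strand) was at 130.4, 130.7 and 130.4 CPM in shNC and at 113, 116 and 115 CPM in shDDX21. It fell to 87.7% of the control (log2 fold change -0.19, SE 0.032, adjusted p 5.05e-07).

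**Figure D4:**
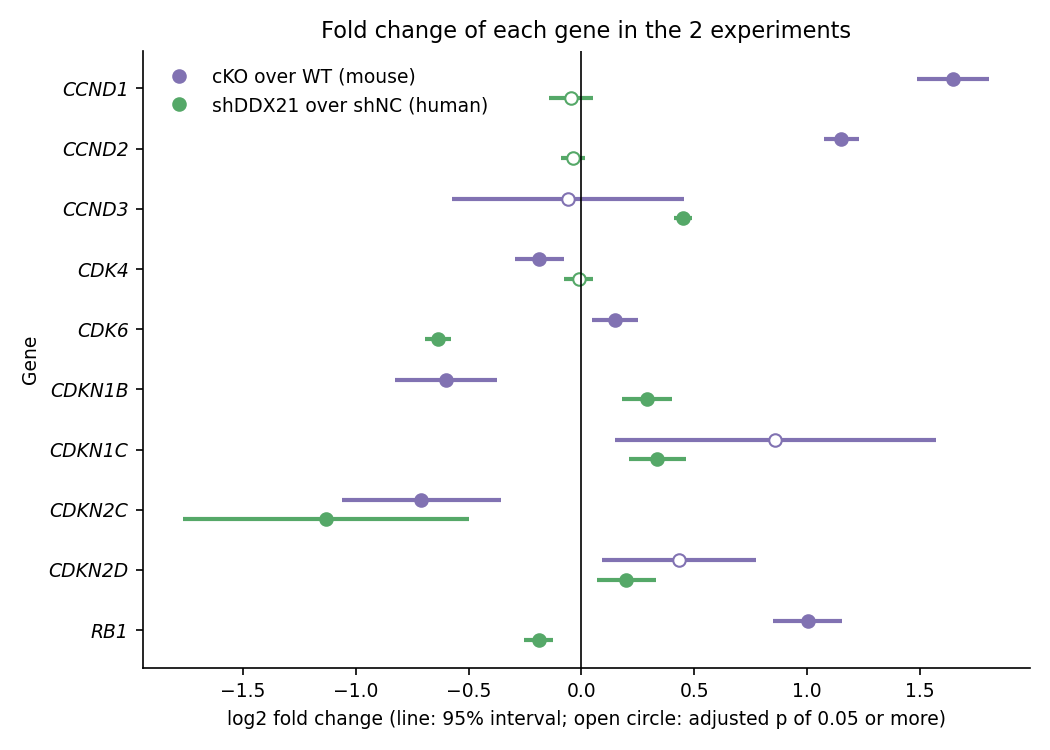
Log2 fold change of each gene in the mouse (purple) and human (green) experiment with its 95% interval; filled circles have an adjusted p under 0.05. CCND1, CCND2 and RB1 lie at 1.00 to 1.65 in the mouse and near or below 0 in the human cells, and CDKN1B lies on opposite sides of 0.

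Whether the effects themselves differed was tested as an interaction in a fit of all 12 libraries, which called 56.3% of 10300 genes matched by symbol and 6 of the 10 members. CCND2 had a mouse effect above the human one by 1.19 on the log2 scale (SE 0.041, adjusted p 1.03e-09), CCND1 by 1.69 (SE 0.076, adjusted p 8.49e-09), RB1 by 1.19 (SE 0.070, adjusted p 7.44e-08) and CDK6 by 0.79 (SE 0.051, adjusted p 1.55e-07). For CDKN1B the mouse effect was lower by 0.89 (difference -0.89, SE 0.12, adjusted p 5.11e-05). For CDK4 the difference was -0.17 (adjusted p 0.0210), which was lost with total counts (-0.08, adjusted p 0.209) and without shNC replicate 3 (adjusted p 0.0576), the 2 exceptions among 18 alternatives. The difference for CCND3 was -0.51 (SE 0.24, adjusted p 0.0929, range 0.00535 to 0.218 over 18 alternatives). It passed without cKO replicate 1 (-0.72, adjusted p 0.00535), without WT replicate 3 (-0.68, adjusted p 0.0141), with upper-quartile factors (0.0392) and with the replicate block (0.0385). CDKN1C, CDKN2C and CDKN2D had differences of 0.52, 0.42 and 0.23 with adjusted p of 0.118, 0.242 and 0.206. That of CDKN1C passed without WT replicate 1 (0.98, adjusted p 0.00254, range 0.00254 to 0.376 over 18 alternatives), and that of CDKN2D without cKO replicate 2 (adjusted p 0.0118, range 0.0118 to 0.409). A knockout in the mouse and a knockdown in human cells also differ in species, cell source and time, which cannot be told apart here.

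The order of levels per length differed between the systems. In WT it ran from Cdk4 (143 ± 5.43 CPM per kb, SD, n = 3) through Cdk6 (45.3 ± 1.70) and Ccnd2 (38.4 ± 0.495) to Ccnd3, Rb1, Cdkn1b, Ccnd1, Cdkn2d, Cdkn2c and Cdkn1c (0.446 ± 0.212), and no neighbours overlapped. In cKO, Ccnd2 (85.4 ± 1.54) was above Cdk6 (50.2 ± 1.82), and Ccnd1 (13.1 ± 0.156) stood beside Ccnd3 (12.8 ± 3.45), the only neighbours whose libraries overlapped. In shNC, CCND3 (103 ± 1.16) was highest, before CDK4 (44.0 ± 0.932), CCND2 (28.1 ± 0.216), RB1 (20.2 ± 0.0326), CDK6 (18.8 ± 0.449) and CDKN2D (16.5 ± 0.770). CDKN1C (10.6 ± 0.326) and CCND1 (10.3 ± 0.259) overlapped there, and CDKN1B and CDKN2C (0.543 ± 0.0519) were lowest. In shDDX21, CDK6 (12.1 ± 0.126) was in seventh place, below CDKN2D (19.0 ± 0.346), RB1 (17.8 ± 0.187) and CDKN1C (13.4 ± 0.991).

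Genes on the opposite strand share exons with some members, and whether counting used strand is not given in the sources used here, so reads of the partners may not be fully separated. The partner with most counts relative to its member was Bysl, a ribosome assembly gene that overlaps Ccnd3 and had 92.0% of its counts over the 6 mouse libraries, with a log2 fold change of -0.41 (adjusted p 0.0119). Lto1 had 46.1% of the counts of mouse Ccnd1 and 65.1% of those of human CCND1, with log2 fold changes of 0.08 (adjusted p 0.455) and 0.23 (adjusted p 0.000705). Rcbtb2 and Lpar6 had 30.2% and 10.1% of the counts of Rb1 and log2 fold changes of 0.24 (adjusted p 0.0937) and 0.28 (adjusted p 0.0411). Tspan31 had 12.8% of the counts of mouse Cdk4 and a log2 fold change of 0.23 (adjusted p 0.0278). Human TSPAN31 had 16.0% of the counts of CDK4 and a log2 fold change of -0.27 (adjusted p 0.000944). How far reads of the partners entered the counts of mouse Ccnd1, Ccnd3, Cdk4 or Rb1, or of human CCND1 or CDK4, was not tested.

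The rest of the pathway was read from 5 lists, described by counts beside the median of all genes tested, which was 0.00 in the mouse and 0.01 in the human experiment. E2F target genes of DNA synthesis were lower in both: 14 of 15 fell in the mouse (median -0.36) and 15 of 15 in the human cells (median -0.70), with 15.8% and 27.4% of all genes called lower. Cdc6, a loader of the replicative helicase, fell by 0.60 on the log2 scale in the mouse (adjusted p 5.12e-05), Mcm7 by 0.44 and Rrm1 by 0.36. Human MCM6 changed by -1.19, RRM1 by -1.33 and MCM4 by -0.89. This was found beside the higher D cyclin sums given above.

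Among cyclins E and A, CDK2 and their activating kinases, 5 of 8 mouse genes fell and 1 rose, and 6 of 8 human genes fell and 1 rose (medians -0.17 and -0.53). Beside this list and the next, 15.8% of all mouse genes were called lower and 20.7% higher. For all human genes these shares were 27.4% and 25.3%. Ccne1, Ccna2 and Ccne2 changed by -0.49, -0.47 and -0.42 in the mouse (adjusted p 5.84e-05, 0.000139 and 0.00154). CCNA2, CDC25A and CCNE1 changed by -0.76, -0.66 and -0.83 in the human cells. Of the pocket proteins and E2F/DP factors, 7 of 12 mouse genes fell and 1 rose (median -0.25). The one that rose was Rbl2, which encodes the RB1 relative p130 and was higher by 0.66 (adjusted p 0.000178), whereas E2f8 and Rbl1 fell by 0.55 and 0.37. Of the human genes 8 of 12 fell and 1 rose (median -0.25). TFDP1 fell from 114 to 57.2 CPM, RBL1 changed by -0.98 and E2F3 rose by 0.37. Human RBL2 was at -0.02 (adjusted p 0.653).

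Of the other CDK inhibitors, Cdkn1a (p21) rose from 5.08 ± 0.674 to 283.8 ± 7.64 CPM in the mouse (SD, n = 3 each; log2 fold change 5.81, adjusted p 5.91e-08), more than any of the 10 members. Cdkn2b had a log2 fold change of 1.89 (adjusted p 0.00347) at a level of 0.591 ± 0.0797 CPM in cKO, and Cdkn3 fell by 0.39. Human CDKN1A rose by 0.59 (adjusted p 4.56e-38) from an already high 814 ± 26.1 CPM (SD, n = 3), while CDKN3 and CDKN2A changed by -0.68 and -1.08 (adjusted p 1.94e-07 and 0.000962). Of 7 genes for the turnover of D cyclins and p27, 4 fell in the mouse (median -0.41), against 15.8% of all genes. Among the human ones 2 of 7 fell and 1 rose (median -0.01), near the 27.4% and 25.3% of all genes. Skp2 and Cks1b, which direct p27 to degradation, fell in both: Skp2 by 0.52 and 0.45, and Cks1b by 0.41 and 0.54. Fbxo31 fell by 0.55 in the mouse (adjusted p 0.0304), and FZR1 rose by 0.32 in the human cells (adjusted p 1.60e-08).

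**Figure D5:**
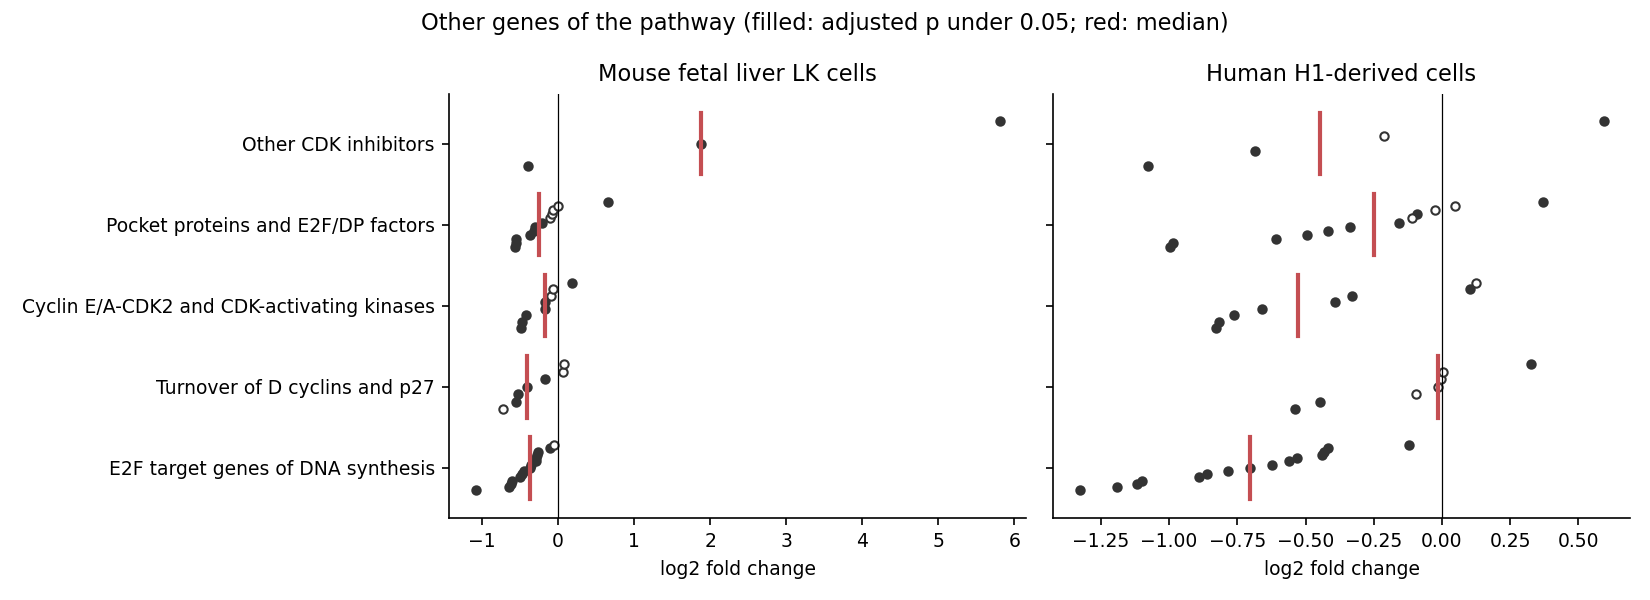
Log2 fold change of every tested gene of the 5 pathway lists in the mouse (left) and human (right) experiment; filled circles have an adjusted p under 0.05 and red lines are medians, and the axes differ between panels. The E2F targets lie below 0 in both, and mouse Cdkn1a stands alone at 5.81.

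Marker lists of cell types were read in the same libraries, where 20.7% of all mouse genes were called higher and 15.8% lower. In the mouse the stem and multipotent progenitor list had 10 of 10 genes higher, and its summed level was 236 to 253 CPM in WT and 497 to 521 CPM in cKO. Some genes of that list stand in other lists too. The megakaryocyte list (4 of 7 tested higher, 0 lower) was at 114 to 133 CPM in WT and 192 to 265 CPM in cKO. The endothelial list (4 of 8 higher, 0 lower) was at 79.8 to 99.9 CPM in WT and 118 to 138 CPM in cKO. Hepatocyte genes, of which 4 of 4 tested were higher, were at 1.31 to 1.76 CPM in WT and 28.3 to 32.4 CPM in cKO, led by Afp and Alb. The granulocyte and monocyte list (8 of 9 lower, 1 higher) was at 745 to 1006 CPM in WT and 385 to 637 CPM in cKO, and the lymphoid list (4 of 5 lower) at 26.6 to 30.1 CPM in WT and 11.3 to 12.7 CPM in cKO. The mast cell and basophil list had 1 of 4 higher, near the share of all genes, and was at 107 to 129.9 CPM in WT and 144.5 to 187 CPM in cKO. The erythroid list had 4 of 9 higher and 3 lower and overlapped between the groups, and macrophage markers stayed at or below 3.31 CPM in every library, with Mertk, C1qa, C1qb, Cd5l and Timd4 at no more than 3 counts. The part of these shifts in the levels of the 10 genes was not tested.

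Of all human genes 25.3% were called higher and 27.4% lower. In shDDX21 cells the summed erythroid markers went from between 646 and 666 CPM to between 795 and 815 CPM (6 of 8 called higher, 1 lower), and the stem list from between 742 and 746 CPM to between 888 and 893 CPM (6 of 8 higher, 1 lower). The megakaryocyte list (3 of 6 higher, 1 lower) was at 1618 to 1695 CPM in shNC and 1896 to 1929 CPM in shDDX21. The granulocyte and monocyte list had 5 of 6 genes lower and went from between 889 and 905 CPM to between 684 and 695 CPM. The endothelial list had 5 of 8 lower and 2 higher. Its sum was 1922 to 1975 CPM in shNC and 1613 to 1633 CPM in shDDX21. The highest gene in this list was KDR, at 1007 CPM in shNC, and the list shares TEK with the stem list. The mast cell and basophil list had 1 of 4 lower, GATA2, near the share of all genes, and was at 779 to 794 CPM in shNC and 553 to 559 CPM in shDDX21. The lymphoid list (2 of 5 lower) was at 38.2 to 41.8 CPM in shNC and 15.1 to 17.6 CPM in shDDX21. The macrophage list (2 of 4 lower) was at 46.6 to 49.95 CPM in shNC and 38.8 to 46.6 CPM in shDDX21. Their part in the changes of CCND3 and CDK6 was not tested either.

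The genes whose profiles were most like those of the D cyclins over the 12 libraries were found by the root-mean-square difference of log2 CPM, each gene centred on its control mean within each experiment, among 10312 genes. For CCND1 they were DAPK1 (0.10), LDHB (0.11) and GPR132 (0.11), and LDHB had a log2 fold change of 1.81 in the mouse and 0.02 in the human cells. For CCND2 they were ART4, MAST4 and CSNK1G1, at 0.07 to 0.08. For CCND3 they were ZSWIM8 (0.05), RBCK1 (0.06) and FERMT3 (0.08). ZSWIM8 and RBCK1 had human log2 fold changes of 0.52 and 0.54 and mouse ones of -0.09 and -0.07.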

How the data were processed

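RNA sequencing counts of 6 mouse and 6 human libraries were used. The submitters' processing notes name STAR, featureCounts, DESeq2 and the builds mm10 and hg38, without role or order; strand use and the handling of multi-mapped reads are not given in the sources used here. The deposited raw tables hold whole-number read counts per gene with an exon length in bases. A further deposited table for each experiment holds normalized values (signal), which were checked to be the raw count over 1 constant per library (largest relative deviation 4.97e-10), and the authors' log2 of these over the control mean. These tables served for gene symbols, completed in the mouse from GENCODE M21.

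edgeR 4.0.16 (R 4.3.3) tested the counts (filterByExpr, TMM factors, glmQLFit and glmQLFTest, two-sided) separately in each experiment, and in a fit of both for the interaction; calls needed a Benjamini-Hochberg adjusted p below 0.05. SE was derived from the log2 fold change and the F statistic, and intervals are at 95%. CPM values use TMM-scaled library sizes. DESeq2 1.42.0, other scalings and filters, a replicate block and leaving out each library were alternatives. The procedure was tested on simulated data with 200 changed genes in each experiment. Far more genes were called here, so the simulation cannot show how scaling behaves under such widespread change. Same-numbered libraries did not deviate together throughout (mouse correlations 0.32, -0.18 and 0.01), so replicate numbers were not treated as pairs. Some mouse libraries with different numbers had larger correlations, such as 0.41 for WT replicate 3 with cKO replicate 2. The members and lists were chosen with earlier results of these data known. The text names all 10 members, up to 3 genes with the smallest p of each pathway list, the 3 genes most like each D cyclin, and the sort and leading cell type markers. Lists hold 4 to 15 genes, and human symbols were known for 14931 genes, so markers without a symbol were left out. Single values of some marker genes are not reported here.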

Additional observations from a re-analysis of the deposited data

Results flagged for a closer look

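The effect of losing DDX21 differed between the mouse and human experiments for 6 of the 10 genes, by the interaction test in edgeR. The mouse minus human difference in log2 fold change was 1.69 for CCND1, 1.19 for CCND2, 1.19 for RB1 and 0.79 for CDK6, and it was -0.89 for CDKN1B and -0.17 for CDK4. For CDKN1B, RB1 and CDK6 the effects had opposite signs and were called in both experiments, with the mouse Cdk6 call held in 5 of 13 alternatives, whereas for CDK4 the human effect was not called. With 56.3% of all matched genes differing in this way, a share of 6 in 10 is near the background.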

How the results depend on the processing

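Calls of Ccnd1, Ccnd2, Rb1, Cdkn1b and Cdkn2c in the mouse, and of CCND3, CDK6, CDKN1B, CDKN1C, CDKN2C and RB1 in the human cells, held in direction and call in all 13 alternatives of their experiment. With 1 library left out, 3717 to 5671 mouse genes, 9820 to 10079 human genes and 5344 to 6258 interactions were called, and 5 to 7, 6 to 7 and 5 to 7 of the 10 members. With the replicate number as a block, 5166 mouse genes, 10601 human genes and 5716 interactions were called against 5443, 10631 and 5794 without it, and the only calls of members it changed were mouse Cdk6 (adjusted p 0.0502) and the CCND3 interaction (0.0385). Same-numbered WT and cKO libraries had correlated deviations of 0.32, -0.18 and 0.01, and human ones between -0.01 and 0.00, so no pairing was used. Counts not divided by exon length turned the mouse CDK4 plus CDK6 sum from -0.098 to 0.017 (log2 ratio) and moved the mouse inhibitor sum to -0.35, the human D cyclin sum to 0.31 and the human CDK4 plus CDK6 sum to -0.37. They moved the share differences, in percentage points, to 2.37 for mouse Ccnd1, -3.94 for Cdkn2c and 10.96 for Cdkn2d, and to -1.24, -5.56 and 6.80 for human CCND1, CCND2 and CCND3 and -10.5 for CDK6. Total counts moved the D cyclin sums to 1.06 in the mouse and 0.30 in the human cells, and the CDK4 plus CDK6 sums to -0.033 and -0.20. The cause of these shifts is the setting itself: long genes weigh more, or a library constant changes. The members with the fewest counts were mouse Cdkn1c (12 to 41 per library) and human CDKN2C (11 to 32).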
